A study of Mus musculus with 48 samples.

Results

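The expression of 34 astrocyte genes was followed in the cortex of mice that were WT or Chd8 V986*/+. The genes are those named in a list of astrocyte markers, and the row of each was taken by its symbol from a table of 24444 genes, in which all 34 were present. They comprise 29 homeostatic genes, which serve the resting functions of astrocytes, and 5 reactive genes (Gfap, Vim, Serpina3n, Lcn2 and C4b), which astrocytes raise in injury or inflammation. The cortex of 1 hemisphere was taken from 48 male C57BL/6J mice, 6 of each genotype at embryonic day 14.5 (E14.5), 1 month, 6 months and 12 months, and polyA RNA was sequenced. Chd8 V986*/+ mice are heterozygous for a CRISPR/Cas9 allele with stop codons at V986 of the chromatin remodeler CHD8, on a line that came from 1 founder, and the WT mice were their littermates with both alleles intact. The study compared the genotypes at each age and followed each genotype across ages. Values are variance-stabilizing transformation (VST) normalized expression on a log2 scale, on which a difference of 1 stands for a doubling well above the most frequent value of 2.1433, called the floor here, and for more than a doubling near it. Of all values, 6.06% lay below the floor.

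Astrocytes clear glutamate from synapses, buffer potassium and water at their endfeet on blood vessels, share metabolites through gap junctions and supply neurons with lipids and energy substrates. They arise from radial glia late in gestation and mature after birth, so the embryonic cortex at E14.5 holds neural progenitors that already express some of these genes but few astrocytes. Reactive astrocytes raise intermediate filament genes and a set of secreted acute phase, iron-binding and complement genes, partly through STAT3, NF-kB and C/EBP factors.

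At E14.5, Chd8 ranged from 12.33 to 12.66 in WT and from 11.60 to 12.03 in Chd8 V986*/+ mice, and the genotypes did not overlap at 1, 6 or 12 months either. Whole cortex was sequenced, and fewer astrocytes cannot be told apart from less RNA per astrocyte in any result here. At E14.5, WT replicates 2, 3 and 5 had mean levels of 4.65, 4.69 and 6.35 over 28 midbrain, hindbrain and spinal cord genes, against 3.03 to 4.19 in the other embryos of both genotypes. At 12 months, WT replicates 6 and 1 lay farthest from the other mice on the first principal component, which held 21.9% of the variance. WT replicate 6 had the highest value of its group in 20 of the 34 genes and WT replicate 1 in 9. At 1 month, Chd8 V986*/+ replicate 3 had a score of 30.69 on the first principal component, against -20.85 to 12.12 in the other mice, and the lowest mean levels of its age over 8 endothelial genes (8.59) and 6 meninges and fibroblast genes (7.19). The part of other tissue in the results was not tested. The deposited table holds no counts and the read depths listed by the study are not used here, so precision is given by the spread between 6 mice.

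Most of the 34 genes stood far higher at 1 month than at E14.5. In WT mice, 34 of 34 genes passed the test between these ages, at a Benjamini-Hochberg adjusted p below 0.1 in limma over 17311 genes, 30 higher and 4 lower at 1 month. Change was the rule at this step, since 86.0% of all genes tested also passed, 44.1% higher and 41.9% lower. The median difference was 3.17 over the homeostatic genes and 5.25 over the reactive genes, against 0.04 over all genes tested. In 32 of the 34 genes, the ranges of the 2 ages did not overlap, which also held for 68.2% of all genes. The exceptions were Id3 and Lcn2. Without WT replicates 2, 3 and 5 at E14.5, 32 of 34 genes passed, and Id3 (0.18, adjusted p = 0.194, limma) and Lcn2 (1.23, adjusted p = 0.169, limma) did not.

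Glutamate handling genes rose by 2.50 to 4.75. Slc1a2 encodes GLT-1, the main glutamate transporter of astrocytes. Its WT values were 11.82 at the lowest, 12.64 at the median and 12.99 at the highest at E14.5 and 17.19, 17.32 and 17.46 at 1 month, a rise of 4.75 (SE 0.13, adjusted p = 1.87e-34, limma). Slc1a3 encodes the transporter GLAST, which radial glia already carry. It stood at 11.82, 11.89 and 12.04 in WT embryos and at 14.18, 14.40 and 14.62 at 1 month, a rise of 2.50 (SE 0.10). Glul, the glutamine synthetase gene, rose by 3.44, and Slc7a10, a transporter of small neutral amino acids such as serine, by 3.17.

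Transport genes rose by 1.87 to 6.98, with the water channel gene of the endfeet in front. Aqp4 had WT values of 5.10, 5.56 and 6.41 at E14.5 and of 12.37, 12.64 and 12.71 at 1 month, a rise of 6.98 (SE 0.12, adjusted p = 3.46e-42, limma). No embryo came near any 1-month mouse. Hepacam, an adhesion molecule, rose by 4.78, and its partner Mlc1 by 3.14. The bicarbonate cotransporter gene Slc4a4 rose by 3.87, the urea transporter gene Slc14a1 by 2.73 and the chloride channel family gene Ttyh1 by 1.87. The connexin genes rose by 1.56 for Gja1 and 3.60 for Gjb6. Gja1, which encodes connexin 43, was already at 10.88 to 11.74 in WT embryos and reached 12.80 to 13.00 at 1 month.

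Metabolic genes rose by 1.48 to 3.69. Aldh1l1, a folate enzyme gene widely used to mark astrocytes, rose least, from 8.80, 9.45 and 9.70 in WT embryos to 10.64, 10.89 and 11.00 at 1 month, a rise of 1.48 (SE 0.09, adjusted p = 1.8e-19, limma). The acyl-CoA synthetase gene Acsbg1 rose by 3.69, the glycolytic gene Aldoc by 3.20, Ndrg2 by 3.06 and Ppp1r3c, which targets protein phosphatase 1 to glycogen, by 2.62. Genes of secreted and metal-binding proteins rose by 2.73 to 7.31. The calcium-binding protein gene S100b had WT values of 2.97, 4.15 and 4.93 in embryos and of 11.11, 11.30 and 11.46 at 1 month, a rise of 7.31 (SE 0.17, adjusted p = 2.36e-37, limma). Agt, which encodes angiotensinogen, rose by 6.01 from embryonic values of 2.08 to 3.35. The lipoprotein genes Clu and Apoe rose by 4.85 and 4.35, the matricellular gene Sparcl1 by 4.09, the protease inhibitor gene Cst3 by 3.23 and the metallothionein gene Mt3 by 2.73.

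Fate and signalling genes did not follow this course. Nfia, a factor that starts gliogenesis, had WT values of 12.59, 12.66 and 13.29 at E14.5 and of 11.13, 11.25 and 11.38 at 1 month, and fell by 1.51 (SE 0.09, adjusted p = 6.88e-20, limma). Id4, an inhibitor of basic helix-loop-helix factors, fell by 1.79 from a WT range of 11.83 to 12.47 to one of 10.24 to 10.70 (SE 0.10, adjusted p = 2.19e-22, limma). Sox9, a factor of neural stem cells and astrocytes, fell by 1.30. Both ages overlapped in Id3, which was 0.21 higher at 1 month (SE 0.10, adjusted p = 0.0499, limma). This call was lost in 4 of 12 fits that left out 1 mouse, those without WT replicate 4, 5 or 6 at 1 month or WT replicate 4 at E14.5. The growth factor receptor gene Fgfr3 rose by 0.87.

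**Figure D1:**
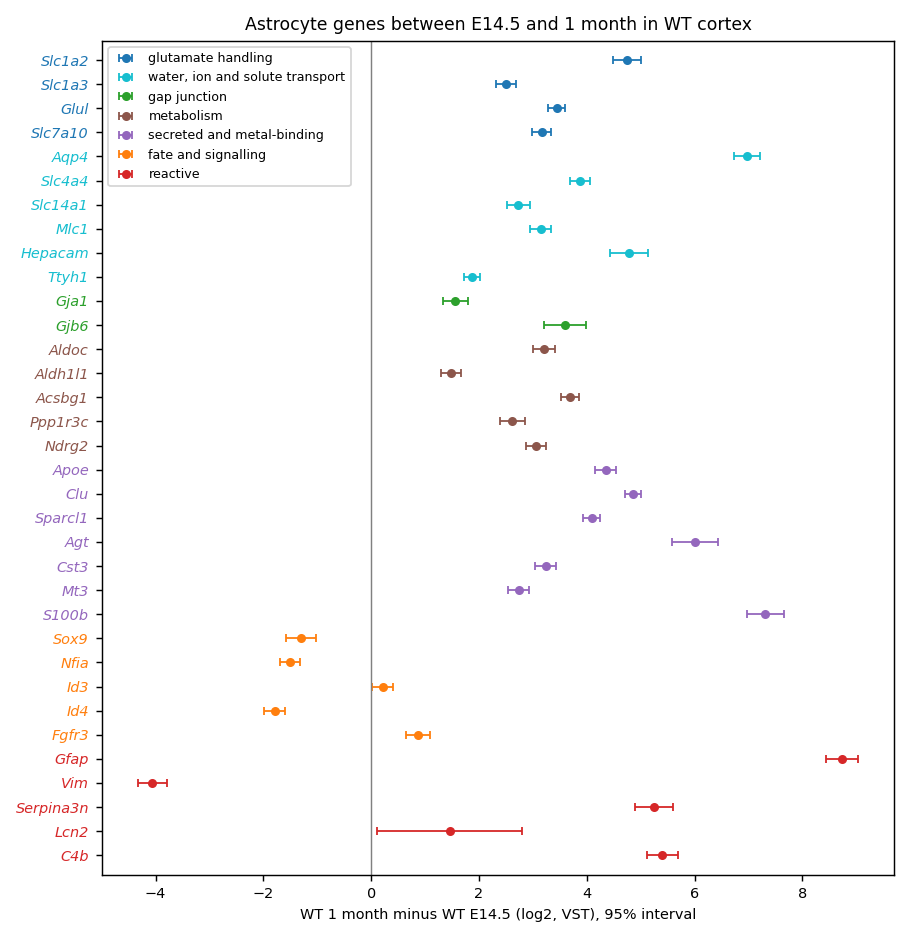
Difference between WT mice at 1 month and WT embryos at E14.5 for each astrocyte gene on the log2 VST scale (x axis), with 95% intervals from limma, 6 mice per age. Genes are grouped and colored by role. Gfap lies farthest to the right at 8.74, and Vim, Id4, Nfia and Sox9 lie to the left of 0.

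The reactive genes did not move together over this step. Gfap (mm9 chr11:102748650-102762226, minus strand), a filament gene of mature astrocytes, had WT values of 3.35, 3.62 and 4.42 at E14.5 and of 12.25, 12.48 and 12.67 at 1 month, and rose by 8.74 (SE 0.15, adjusted p = 1.66e-42, limma), more than any other of the 34 genes. Vim (mm9 chr2:13495554-13504453, plus strand), a filament gene of radial glia and of reactive astrocytes, fell by 4.06 (SE 0.14, adjusted p = 1.33e-30, limma), from 13.66, 13.83 and 14.16 to 9.43, 9.86 and 10.08. Every embryo was above every 1-month mouse. Serpina3n encodes a secreted inhibitor of serine proteases. It rose by 5.25 (SE 0.17) from a WT range of 2.25 to 3.54 to one of 7.91 to 8.45. The complement gene C4b rose by 5.40 (SE 0.14) from a WT range of 2.72 to 3.09 to one of 8.01 to 8.58. C4b has a near-identical neighbor, C4a, so the split of reads between both is uncertain, and C4a had WT means of 4.69 at E14.5 and 4.93 at 1 month. Lcn2, which encodes the iron carrier lipocalin 2, had WT values of 2.01, 2.85 and 3.25 at E14.5 and of 3.20, 4.21 and 4.86 at 1 month, a rise of 1.45 (SE 0.67, adjusted p = 0.0409, limma). Embryonic values of Gfap, S100b, Agt, Serpina3n, C4b and Lcn2 lay near the floor, so their differences are smaller than on an untransformed scale.

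The same course was seen in Chd8 V986*/+ mice, in which 33 of 34 genes passed against 85.9% of all genes, 29 higher and 4 lower at 1 month against 44.1% and 41.8% of all genes. Gfap rose by 8.51 (SE 0.15), S100b by 7.62 (SE 0.17) and Aqp4 by 6.87 (SE 0.12), and Vim fell by 4.30 (SE 0.14). Lcn2 did not pass (difference 1.09, SE 0.67, adjusted p = 0.125, limma). With only the compared groups in the fit, it passed (SE 0.24, adjusted p = 0.000518, limma). The call of Id3 (difference 0.19, SE 0.10) was lost in 6 of 12 fits that left out 1 mouse. Those left out Chd8 V986*/+ replicates 1, 5 or 6 at 1 month or replicates 2, 4 or 6 at E14.5. For no gene did the difference of the genotype effects between 1 month and E14.5 pass the test, and at an unadjusted p below 0.05 the limma count was also 0 of 34, against 4.6% of all genes.

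Genes that are known from cell type studies to accompany the 34 genes were read beside them. Of 40 other astrocyte genes, 32 rose and 7 fell between E14.5 and 1 month in WT mice, with a median difference of 3.12. The receptor genes Gpr37l1 and Ntsr2 rose by 8.88 and 7.62, and Dio2, which activates thyroid hormone, by 7.44. Radial glia genes went the other way, with 10 of 12 lower and 1 higher (median -1.67). Nes fell by 4.36, Tnc by 3.59 and Fabp7 by 3.54. Genes of microglia, which also express C1q and other complement genes, rose too, with 12 of 12 higher and a median of 2.56.

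The adult cortex changed far less. Between 1 and 6 months in WT mice, 8 of 34 genes passed the test, 3 higher and 5 lower, a share near the 18.6% of all genes that passed, 9.06% higher and 9.54% lower. The homeostatic genes had a median difference of -0.09 and the reactive genes of 0.45, against 0.01 over all genes tested. Without Vim, the reactive median was 0.75. C4b led the rise. It had WT values of 8.01, 8.37 and 8.58 at 1 month and of 8.99, 9.44 and 9.56 at 6 months, a rise of 1.06 (SE 0.14, adjusted p = 4.66e-07, limma), and every 6-month mouse was above every 1-month mouse, which held for 3.69% of all genes. Ppp1r3c rose by 0.45 (SE 0.11, adjusted p = 0.0047, limma), from 10.17, 10.45 and 10.64 to 10.50, 10.87 and 11.19. Serpina3n rose by 0.45 (SE 0.17, adjusted p = 0.0812, limma), and this call was lost in 7 of 12 fits that left out 1 mouse, WT replicates 1, 2, 4 or 5 at 1 month or replicates 3, 4 or 6 at 6 months.

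The 5 genes that fell were Aqp4, Gja1, Slc7a10, Ttyh1 and Id3. Aqp4 fell by 0.54 (SE 0.12, adjusted p = 0.00137, limma), from a WT range of 12.37 to 12.71 to one of 11.94 to 12.20. Gja1 fell by 0.31 (SE 0.11, adjusted p = 0.0587, limma), from 12.80 to 13.00 at 1 month to 12.48 to 12.79 at 6 months, a call lost after quantile normalization (adjusted p = 0.129) and without WT replicate 3 at 1 month or replicates 1 or 5 at 6 months. Slc7a10 fell by 0.26, Ttyh1 by 0.25 and Id3 by 0.32. In Aqp4, Gja1, Slc7a10 and Ttyh1 every 6-month mouse was below every 1-month mouse, which held for 4.74% of all genes.

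Little more happened between 6 and 12 months. In WT mice, 0 of 34 genes passed in limma, against 0.0404% of all genes, and 3 passed at an unadjusted p below 0.05, against 9.42% of all genes. C4b did not overlap, as in 0.225% of all genes that were higher at 12 months, with 8.99 to 9.56 at 6 months and 9.60 to 10.61 at 12 months (difference 0.62, SE 0.14, adjusted p = 0.133). It passed without WT replicate 2, 3 or 4 at 12 months, with adjusted p values of 0.096, 0.0294 and 0.0701, and its difference was 0.36 without WT replicates 1 and 6. In Chd8 V986*/+ mice, Ppp1r3c alone passed, against 0.578% of all genes. It fell by 0.48 (SE 0.11, adjusted p = 0.0785, limma), from 10.80, 10.97 and 11.31 to 10.25, 10.55 and 10.73, and every 12-month mouse was below every 6-month mouse, as in 1.08% of all genes. The call was lost in 6 of 12 fits that left out 1 mouse, Chd8 V986*/+ replicates 2, 3 or 4 at 6 months or replicates 2, 3 or 6 at 12 months. C4b passed in its place without replicate 2 at 6 months.

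Across the whole adult span, from 1 to 12 months, 14 of 34 genes passed in WT mice, 8 higher and 6 lower, against 26.6% of all genes, 12.8% higher and 13.9% lower. The reactive genes had 3 of 5 higher and a median of 0.70, and the homeostatic genes had 5 higher and 6 lower of 29 and a median of -0.05, against 0.00 over all genes tested. The reactive median was 1.19 without Vim. C4b rose by 1.68 (SE 0.14, adjusted p = 1.73e-12, limma) to 12-month values of 9.60, 9.82 and 10.61, above every 1-month mouse, as in 3.33% of all genes. Serpina3n rose by 0.70 (SE 0.17, adjusted p = 0.00265, limma) to 8.41, 9.07 and 9.31. Lcn2 rose by 1.70 (SE 0.67, adjusted p = 0.0633, limma) but split the mice, since 4 of the WT mice at 12 months lay between 6.75 and 8.20 and the other 2 at 2.28 and 2.94, below every 1-month mouse. An exact permutation test of Lcn2 gave p = 0.139, and its call was lost in a fit of the compared groups alone (adjusted p = 0.195) and without WT replicates 1, 2, 5 or 6 at 12 months or replicate 2 at 1 month. The filament genes did not pass, with differences of -0.02 for both Gfap (SE 0.15) and Vim (SE 0.14), and Gfap ranged from 12.07 to 12.89 at 12 months against 12.25 to 12.67 at 1 month.

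Among the homeostatic genes, the transport group had 3 of 6 genes lower and none higher, and the metabolic group 3 of 5 higher and none lower. Without WT replicates 1 and 6 at 12 months, these counts were 2 of 6 lower and 1 of 5 higher. Aqp4 fell by 0.54 (SE 0.12, adjusted p = 0.00093, limma) to 11.85, 12.03 and 12.30. Id3 fell by 0.32 and Gja1 by 0.29, and Slc7a10, Slc14a1 and Ttyh1 fell by 0.26, 0.26 and 0.24. Ppp1r3c rose by 0.52, Ndrg2 by 0.31 and Aldoc by 0.26, and Cst3 rose by 0.32 and Glul by 0.19. Without WT replicate 6 at 12 months, 9 genes passed, and the calls of Aldoc, Ndrg2, Cst3, Glul and Lcn2 were lost. Without WT replicate 1, Aldoc, Glul, Lcn2 and Slc14a1 were lost. The calls of Gja1 and Slc14a1 were each lost without WT replicate 3 or 5 at 1 month or WT replicate 2, 3 or 5 at 12 months, that of Slc14a1 also without WT replicate 2 at 1 month, that of Aldoc without WT replicate 2 or 4 at 1 month and that of Glul without WT replicate 1 or 2 at 1 month. Leaving out both WT replicates 1 and 6 gave differences of 0.07 for Aldoc, 0.07 for Ndrg2, 0.08 for Cst3, 0.04 for Glul and 0.67 for Lcn2, none of which passed, and 9 genes were again called. C4b (1.42), Serpina3n (0.56), Ppp1r3c (0.40), Aqp4 (-0.54), Gja1, Id3, Slc7a10 and Ttyh1 remained called, and Slc1a3 (-0.27) was gained.

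In Chd8 V986*/+ mice, 6 of 34 genes passed between 1 and 12 months, 2 higher and 4 lower, against 31.8% of all genes (15.7% higher and 16.1% lower), and 4 of 34 passed between 1 and 6 months, 3 higher and 1 lower, against 19.4% (9.78% higher and 9.63% lower). C4b rose by 1.14 by 6 months and by 1.66 by 12 months (SE 0.14 for both, adjusted p = 2.43e-12 for the second, limma), from 7.80, 8.13 and 8.33 at 1 month to 9.57, 9.73 and 9.95 at 12 months. Sox9 rose by 0.37 and then to 0.54 above 1 month (SE 0.13, adjusted p = 0.00229, limma), and its call at 6 months was lost in 5 of the 12 fits that left out 1 mouse, replicates 3, 4 or 5 at 1 month or replicates 1 or 5 at 6 months. Ppp1r3c was 0.62 higher at 6 months and 0.14 higher, without passing, at 12 months. Ttyh1 fell by 0.23 by 6 months and by 0.28 by 12 months. By 12 months Gjb6 fell by 0.47, Aqp4 by 0.33 and Slc7a10 by 0.26, and the call of Gjb6 was lost in 5 of 12 fits that left out 1 mouse, replicates 1, 5 or 6 at 1 month or replicates 2 or 5 at 12 months. Serpina3n was 0.24 higher (SE 0.17) and Lcn2 differed by -0.51 (SE 0.67), and neither passed. In a fit of the compared groups alone, Serpina3n passed at 12 months (SE 0.09, adjusted p = 0.062, limma). It also passed there at 6 months (0.26, adjusted p = 0.0815, limma). With only the compared groups in the fit, 13 genes passed between 1 and 6 months and 17 between 1 and 12 months. The share of all genes that passed in that fit is not given here, so these counts cannot be set against it. In WT mice, the same fit lost the calls of Aldoc, Ndrg2, Cst3, Glul and Lcn2 between 1 and 12 months and gained Nfia. Between 1 and 6 months it gained Gfap, Ndrg2, Nfia and Slc1a3 in WT mice. The smaller counts in Chd8 V986*/+ than in WT mice were thus not kept in that fit. A different adult course of the genotypes was not shown, since the difference of the genotype effects between 12 months and 1 month passed for 0 of 34 genes in limma, against 0.00578% of all genes, and for 4 at an unadjusted p below 0.05, against 11.1% of all genes.

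**Figure D2:**
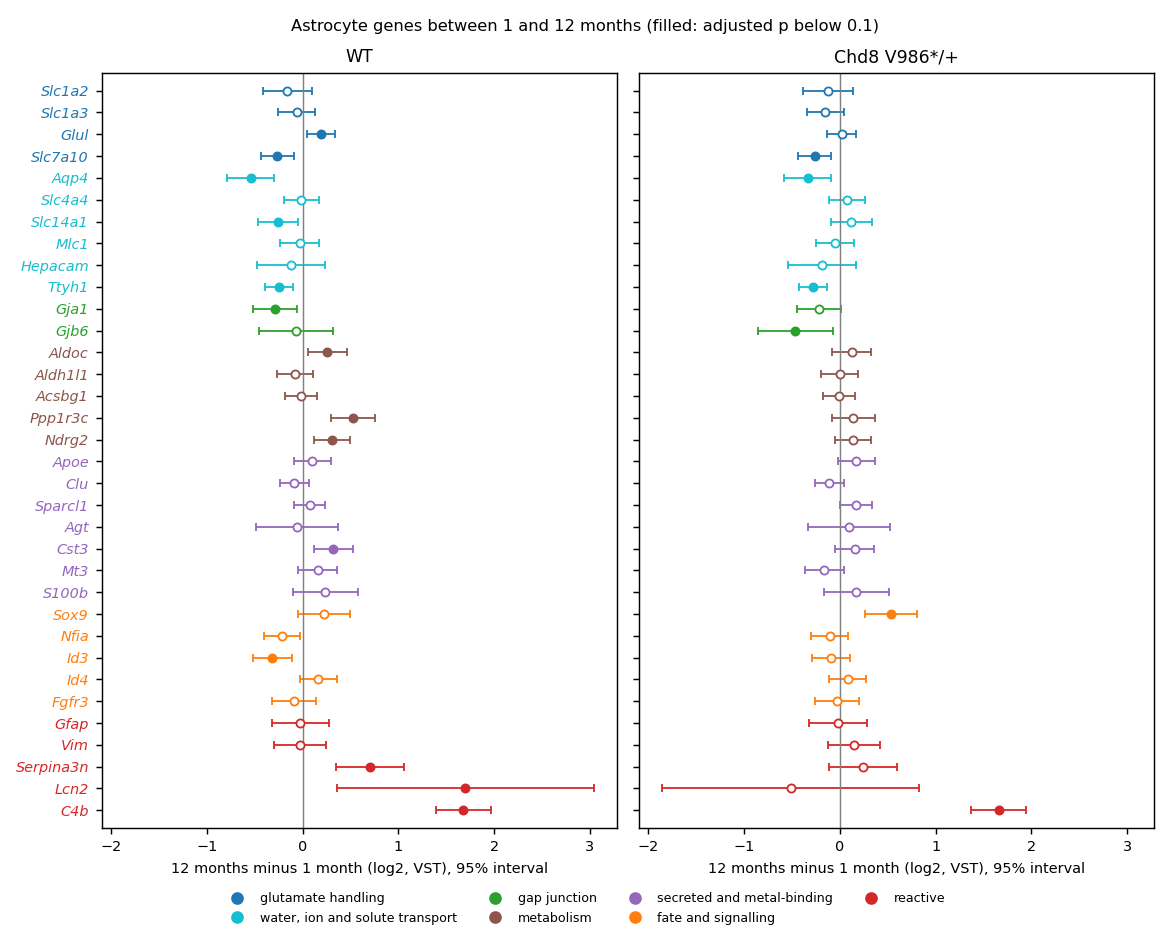
Difference between 12 months and 1 month for each astrocyte gene in WT (left) and Chd8 V986*/+ mice (right) on the log2 VST scale (x axis), with 95% intervals from limma, 6 mice per group. Filled points passed at an adjusted p below 0.1 in the fit of all 48 samples, 14 in WT and 6 in Chd8 V986*/+ mice. C4b lies at 1.68 in WT and 1.66 in Chd8 V986*/+ mice.

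Other reactive and immune genes were read beside C4b and Serpina3n over the same span, in which 12.8% of all genes were higher and 13.9% lower in WT mice. Of 13 complement genes, 5 were higher in WT mice at 12 months than at 1 month, led by C3 (1.36), C1ra (0.56) and C3ar1 (0.42), with a median of 0.22 and none lower. C4a differed by 0.10 and did not pass. Of 11 genes of the inflammation-linked reactive set, 5 were higher, led by H2-T23 (0.73), Psmb8 (0.49) and H2-D1 (0.47), none was lower, and the median was 0.29. Of 9 pan-reactive genes, Cxcl10 (0.91) and Osmr (0.39) were higher. Of 12 genes of the ischemia-linked set, B3gnt5 was lower by 0.61 and the other 11 did not pass. Of 16 cytokine and STAT3 signalling genes, Osmr and Cebpb (0.32) passed. Radial glia genes went on falling, with 5 of 12 lower, Tnc by 1.47, Prom1 by 0.94 and Fabp7 by 0.69. Of 12 microglia genes, which share C1qa, C1qb and C1qc with the complement list, 4 were higher and 3 lower. Complement and major histocompatibility genes are expressed by microglia as well as astrocytes, and the part of microglia was not tested. Of the 40 other astrocyte genes, 4 were higher and 6 lower, among them Etnppl (1.29), Dio2 (-0.73) and Itih3 (0.52). Without WT replicates 1 and 6 at 12 months, when 9.55% of all genes were higher and 10.5% lower, 3 complement genes, 2 of the inflammation-linked set, 0 of the cytokine list and 0 microglia genes were higher, 0 of the pan-reactive genes were higher and 1 lower, and 5 radial glia genes were lower. Lists of other cells and tissue moved too in that fit. Of 10 oligodendrocyte genes 8 were lower and 0 higher (median -0.90), and of 6 oligodendrocyte precursor genes 3 and 0 (median -0.41). Of 6 meninges and fibroblast genes 3 were lower and 0 higher (median -0.48). Striatum genes had a median of 0.52, with 1 of 11 higher and 0 lower, and neuron genes of 0.06, with 2 of 12 higher and 2 lower. The part of these cells and tissues in the adult changes was not tested. In Chd8 V986*/+ mice, 3 of 13 complement genes were higher (C3 by 1.58, C1ra by 1.07 and C3ar1 by 0.30) and 6 of 11 genes of the inflammation-linked set, with Fkbp5 lower by 0.76, against 15.7% of all genes higher and 16.1% lower.

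Serpina3n and Lcn2 lie among the genes that separate reactive from resting astrocytes, and the sequences before their starts are shown because both are textbook targets of inflammatory factors and had the lowest p values among the reactive genes between the genotypes at 12 months. In mm9, Serpina3n (ENSMUSG00000021091.8, protein coding) occupies chr12:105644939-105652539 on the plus strand and Lcn2 (ENSMUSG00000026822.9, protein coding) chr2:32240153-32243317 on the minus strand. The promoter windows are from RefSeq (GRCm38.p6) and were placed in mm9 by exact match, at chr12:105644668-105644917 on the plus strand and at chr2:32243318-32243509 on the minus strand. They are printed 5′ to 3′, with capitals for matches to the motifs listed after them. For Lcn2, the 58 bases nearest the RefSeq start lie inside the annotated mm9 gene and are not printed.
Serpina3n: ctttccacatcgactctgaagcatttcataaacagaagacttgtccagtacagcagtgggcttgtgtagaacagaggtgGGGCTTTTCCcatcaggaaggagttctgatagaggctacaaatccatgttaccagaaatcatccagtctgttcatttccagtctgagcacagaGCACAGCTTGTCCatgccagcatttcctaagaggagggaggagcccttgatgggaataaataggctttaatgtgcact
Lcn2: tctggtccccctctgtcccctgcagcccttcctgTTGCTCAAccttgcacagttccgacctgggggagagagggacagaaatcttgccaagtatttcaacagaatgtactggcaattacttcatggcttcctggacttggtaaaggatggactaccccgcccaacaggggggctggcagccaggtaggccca

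In Serpina3n, the first capitals match the NF-kB motif (GGG, then 2 free bases, then TTTCC) and begin 171 bases before the RefSeq start site, and the second match the glucocorticoid receptor motif (GNACA, then 3 free bases, then TGTNC) at 78 bases before it. In Lcn2, the capitals match the C/EBP letters TTGCNNAA, beginning 158 bases before the end of the printed sequence and 216 bases before the RefSeq start site. Both strands of 250 bases before the start were searched in 32851 RefSeq promoters, which included 28 of the 34 genes. The NF-kB letters were found in 1.41% of all promoters and, among the 28 genes, in Serpina3n and Vim. The C/EBP letters were found in 9.56% of promoters and in Acsbg1, Aldh1l1, Lcn2, Mlc1 and Slc1a2. The glucocorticoid receptor letters were found in 0.387% of promoters and in Serpina3n, and the STAT letters TTCNNNGAA in 7.02% and in Acsbg1, Agt, Aldoc and Slc1a3. No match in these windows overlapped another. A match of letters is a description of these windows and does not show binding.

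Between the genotypes, no astrocyte gene passed the test at any age. In limma, the counts at an adjusted p below 0.1 were 0 of 33 genes tested at E14.5, where Lcn2 lay too low to be tested, and 0 of 34 at 1, 6 and 12 months, while 0.00593%, 0.139%, 0.0927% and 0.0463% of all genes passed. At an unadjusted p below 0.05, the counts were 1, 1, 8 and 5, against 4.56%, 8.8%, 7.59% and 11.6% of all genes. The median difference of the homeostatic genes was -0.05, 0.01, 0.10 and 0.01 at the 4 ages and that of the reactive genes 0.06, -0.18, -0.15 and -0.25, with medians over all genes tested from -0.0029 to 0.0046. All 5 reactive estimates were below 0 at 1 and at 12 months, none called. Without Chd8 V986*/+ replicate 3 at 1 month, Serpina3n was 0.03, Gfap -0.0045, Vim -0.05, C4b -0.18 and Lcn2 -0.53. Without WT replicates 1 and 6 at 12 months, Gfap was 0.09, Vim 0.03 and C4b 0.01, and the reactive median was 0.01 and the homeostatic median 0.09. At 6 months, 28 of 29 homeostatic estimates were above 0, and the share of all genes above 0 is not given here. The mean level of these 29 genes by mouse overlapped, at 12.18 to 12.39 in WT and 12.21 to 12.51 in Chd8 V986*/+ mice. At that age the mean level of 10 oligodendrocyte genes was 11.66 to 11.97 in Chd8 V986*/+ mice and 12.02 to 12.19 in WT mice, with 0 of 10 called in limma and 8 lower at an unadjusted p below 0.05, and its part in the homeostatic levels was not tested.

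At 12 months, the markers that define astrocytes differed little. At 6 months, Aqp4 and Gja1 had higher means in Chd8 V986*/+ mice without passing, as given below. For Aldh1l1 the difference was -0.13 (95% interval -0.42 to 0.17) at E14.5, -0.01 (-0.13 to 0.11) at 1 month, 0.13 (-0.01 to 0.26) at 6 months and 0.07 (-0.06 to 0.20) at 12 months. At 12 months it had values of 10.65, 10.76 and 10.92 in WT and of 10.73, 10.83 and 10.93 in Chd8 V986*/+ mice. The intervals at 12 months were -0.18 to 0.30 for Slc1a2, -0.37 to 0.16 for Slc1a3, -0.18 to 0.11 for Gja1 and -0.29 to 0.12 for S100b, and without WT replicates 1 and 6 the differences were 0.09, 0.10, 0.03 and 0.06, those of Slc1a3, Gja1 and S100b having changed sign. Gfap had values of 12.07, 12.47 and 12.89 in WT and of 12.07, 12.43 and 12.72 in Chd8 V986*/+ mice at 12 months, a difference of -0.06 (interval -0.32 to 0.20) that became 0.09 without WT replicates 1 and 6. Vim differed by 0.06, -0.18, 0.02 and -0.01 at the 4 ages, each within the spread of the mice.

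At E14.5 the lowest p values belonged to Ppp1r3c, Serpina3n and Nfia. Ppp1r3c was at 7.36, 7.84 and 8.01 in WT and at 7.31, 7.43 and 7.60 in Chd8 V986*/+ embryos, a difference of -0.34 (SE 0.11, adjusted p = 0.982, limma). Serpina3n differed by -0.39 (SE 0.27) and Nfia by 0.17 (SE 0.15). C4b differed by 0.07 and Gfap by 0.16. Without WT replicates 2, 3 and 5, the embryos with high midbrain, hindbrain and spinal cord genes, Ppp1r3c differed by -0.22, Nfia by 0.03 and Gfap by -0.03, and Serpina3n did not pass the filter on low values. At 1 month, Lcn2 differed by -0.64 (SE 0.26, adjusted p = 0.495, limma), C4b by -0.23 (SE 0.11, adjusted p = 0.57, limma) and Aqp4 by -0.14 (SE 0.07, adjusted p = 0.608, limma). C4b had values of 8.01, 8.37 and 8.58 in WT and of 7.80, 8.13 and 8.33 in Chd8 V986*/+ mice, and Aqp4 of 12.37, 12.64 and 12.71 in WT and of 12.21, 12.49 and 12.59 in Chd8 V986*/+ mice. The genotypes overlapped in each of the genes tested at both ages and at 12 months, while they did not overlap in 0.261%, 0.825% and 0.868% of all genes at E14.5, 1 month and 12 months.

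Slc14a1 stood apart in both older groups. It had values of 8.22, 8.42 and 8.48 in WT and of 8.56, 8.62 and 8.90 in Chd8 V986*/+ mice at 6 months, a difference of 0.27 (SE 0.07, adjusted p = 0.261, limma). Every Chd8 V986*/+ mouse was above every WT mouse, which held in this direction for 0.226% of all genes and for no other of the 34. The exact permutation test gave p = 0.00216, the smallest that 6 against 6 mice can give. Every gene without overlap takes this value, 0.527% of all genes in either direction. It was not adjusted for picking Slc14a1 as the gene with the lowest p value. At 12 months, Slc14a1 had values of 8.02, 8.25 and 8.55 in WT and of 8.44, 8.71 and 8.86 in Chd8 V986*/+ mice, a difference of 0.42 (SE 0.09, adjusted p = 0.208, limma), and 5 of the 6 Chd8 V986*/+ mice were above every WT mouse. The exact permutation test gave p = 0.00433. The difference was 0.44 without WT replicates 1 and 6. In the same genotype contrast it was 0.05 (SE 0.07) at 1 month and -0.01 at E14.5.

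**Figure D3:**
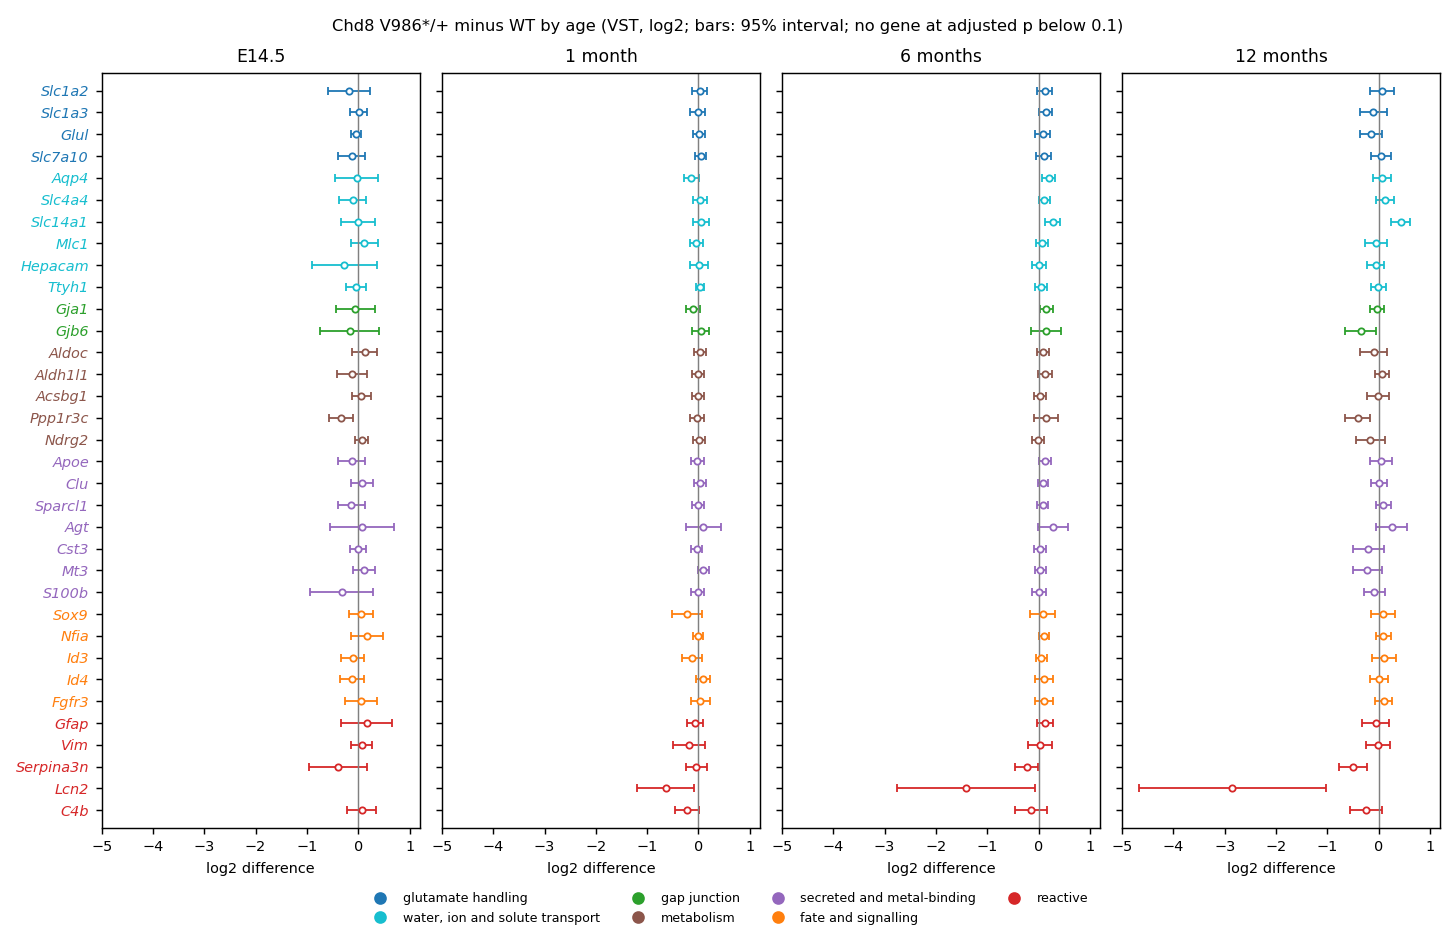
Difference between Chd8 V986*/+ and WT mice for each astrocyte gene at E14.5, 1, 6 and 12 months on the log2 VST scale (x axis), with 95% intervals from limma, 6 mice per group. All points are open because no gene passed, and Lcn2, which was not tested at E14.5, reaches -2.85 at 12 months.

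At 6 months, the next genes by p value after Slc14a1 were Aqp4 and Gja1. Aqp4 had values of 11.94, 12.00 and 12.20 in WT and of 12.03, 12.21 and 12.39 in Chd8 V986*/+ mice, a difference of 0.20 (SE 0.06, adjusted p = 0.391, limma). Gja1 had values of 12.48, 12.58 and 12.79 in WT and of 12.57, 12.74 and 12.88 in Chd8 V986*/+ mice, a difference of 0.15 (SE 0.06, adjusted p = 0.58, limma). In both genes 3 of the 6 Chd8 V986*/+ mice were above every WT mouse. Of the reactive genes, Lcn2 differed by -1.42 (SE 0.64, adjusted p = 0.627, limma), Serpina3n by -0.23, C4b by -0.15 and Gfap by 0.12. The WT mice drove the spread of Lcn2, with 3 mice at 7.03, 7.13 and 7.41 and the other 3 at 3.17, 3.92 and 4.23, while the Chd8 V986*/+ mice ranged from 3.60 to 4.86.

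At 12 months, the lowest p values belonged to Slc14a1, Serpina3n and Ppp1r3c, and none passed. Serpina3n had values of 8.41, 9.07 and 9.31 in WT and of 8.20, 8.45 and 8.70 in Chd8 V986*/+ mice, a difference of -0.51 (SE 0.13, adjusted p = 0.208, limma). In Serpina3n, 2 Chd8 V986*/+ mice were below every WT mouse and the other 4 overlapped the WT range. Ppp1r3c (mm9 chr19:36806227-36811143, minus strand) had values of 10.54, 10.89 and 11.44 in WT and of 10.25, 10.55 and 10.73 in Chd8 V986*/+ mice, a difference of -0.41 (SE 0.12, adjusted p = 0.235, limma), and 3 Chd8 V986*/+ mice were below every WT mouse. The exact permutation test gave p = 0.0195 for Serpina3n and p = 0.0108 for Ppp1r3c.

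The other reactive genes differed by less than their spread or split the mice. Lcn2 stood at 7.72, 6.75, 2.94, 2.28, 7.44 and 8.20 in WT replicates 1 to 6 and at 2.01, 3.27 and 3.74 (lowest, median and highest) in Chd8 V986*/+ mice, a difference of -2.85 (SE 0.86, adjusted p = 0.257, limma), with an exact permutation p = 0.0498. The 4 high WT mice were above every Chd8 V986*/+ mouse and the 2 low WT mice lay within their range. C4b (mm9 chr17:34865325-34880827, minus strand) had values of 9.60, 9.82 and 10.61 in WT and of 9.57, 9.73 and 9.95 in Chd8 V986*/+ mice, a difference of -0.25 (SE 0.15, adjusted p = 0.506, limma).

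Single mice and the fit decided these results at 12 months. In a fit of all 48 samples, Lcn2 (adjusted p = 0.0217), Slc14a1 (0.0323) and Ppp1r3c (0.0525) passed in limma. Without WT replicate 3, Serpina3n (-0.61, adjusted p = 0.0402), Ppp1r3c (-0.50, 0.0586), Lcn2 (-3.44, 0.0686) and Slc14a1 (0.42, 0.0689) passed, and Slc14a1 alone passed without WT replicate 4 (0.48, 0.0676) or Chd8 V986*/+ replicate 6 (0.48, 0.0992). Without WT replicates 1 and 6, which stood apart on the first principal component, 0 genes passed and the differences were -0.36 for Serpina3n, -0.29 for Ppp1r3c, -1.82 for Lcn2 and 0.01 for C4b, all smaller than with them. Those 2 mice had mean levels of 9.70 and 9.87 over 12 microglia genes, against 9.41 to 9.73 in the other 4 WT mice, and of 13.93 and 13.95 over 12 neuron genes, against 14.04 to 14.14 in the other WT mice. The part of these cell types in the results was not tested.

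**Figure D4:**
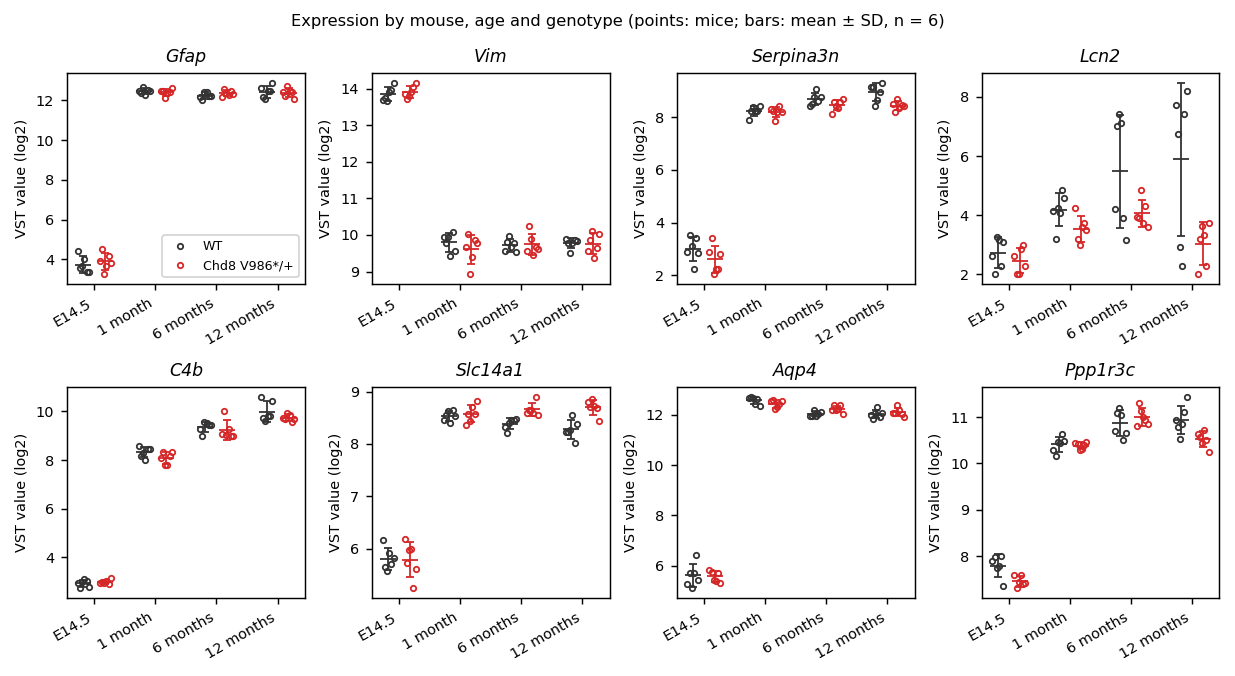
Level of Gfap, Vim, Serpina3n, Lcn2, C4b, Slc14a1, Aqp4 and Ppp1r3c in each mouse (y axis, log2 VST) by age (x axis), WT in black and Chd8 V986*/+ in red, with mean ± SD, n = 6. Lcn2 in WT mice at 12 months splits into 4 mice at 6.75 to 8.20 and 2 at 2.28 and 2.94, and Slc14a1 separates the genotypes at 6 months.

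Whether the genotype difference itself changed with age was tested in one fit of all 8 groups. No gene of the 34 passed in limma for 12 months against E14.5, 1 month or 6 months, against 0.0635%, 0.00578% and 0.0578% of all genes, and 3, 4 and 2 genes had an unadjusted p below 0.05, against 11.5%, 11.1% and 8.68%. The genotype difference of Slc14a1 was 0.44 greater at 12 months than at E14.5 (SE 0.15, adjusted p = 0.262, limma) and 0.38 greater than at 1 month (adjusted p = 0.318, limma). That of Ppp1r3c changed by -0.55 from 6 to 12 months (SE 0.16, adjusted p = 0.273, limma) and passed without WT replicate 3 at 12 months (-0.63, adjusted p = 0.0616, limma). Lcn2 lay too low in embryos to be tested between genotypes at E14.5, so its contrast with that age rests on values near the floor. The genotype difference of Lcn2 changed by -2.58 from E14.5 to 12 months (SE 0.94, adjusted p = 0.28, limma). It passed in limma without WT replicate 3 (-3.17, adjusted p = 0.0937) or 4 (-3.30, adjusted p = 0.0612) at 12 months. From 1 to 12 months it changed by -2.21 and passed without WT replicate 4 at 12 months (-2.93, adjusted p = 0.0874, limma). The 3 contrasts share the 12-month mice.

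The median SD between mice was greater over the reactive than over the homeostatic genes in each of the 8 groups, with 4 reactive genes at E14.5, where Lcn2 was not tested. In WT mice at 12 months, the median SD was 0.34 over the reactive genes and 0.23 over the homeostatic genes, against 0.18 over all genes tested. In Chd8 V986*/+ mice of that age, these medians were 0.22 and 0.13, against 0.12 over all genes. Without WT replicates 1 and 6, the WT medians at 12 months were 0.21 and 0.16, against 0.14 over all genes. Lcn2 had the largest SD of the 34 genes in WT mice at 12 months, 2.59, and 0.72 in Chd8 V986*/+ mice. The mean level of the 5 reactive genes ranged from 8.51 to 10.13 in WT and from 8.46 to 9.02 in Chd8 V986*/+ mice at 12 months, and that of the 29 homeostatic genes from 12.12 to 12.54 and from 12.18 to 12.40. WT replicates 6 and 1 had the highest reactive means, and the other 4 WT mice ranged from 8.51 to 9.71. Lcn2, the gene with the largest SD, enters the reactive mean, and its part in these ranges was not tested.

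Lists of related genes also had few genotype calls, as did all genes tested. In limma, 0.00593%, 0.139%, 0.0927% and 0.0463% of all genes passed at E14.5, 1 month, 6 months and 12 months. With so few calls over all genes, a lack of calls in these short lists does not set them apart. Of the other astrocyte, reactive, cytokine, complement, radial glia and microglia genes, Fkbp5, a glucocorticoid-responsive gene of the inflammation-linked reactive set, alone passed at any age, with a difference of 0.34 at 1 month (adjusted p = 0.0546, limma). At 12 months the median difference was 0.03 over the 40 other astrocyte genes, -0.04 over 13 complement genes, -0.02 over 11 genes of the inflammation-linked set and -0.05 over 12 microglia genes, with none called.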

How the data were processed

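PolyA RNA of 48 cortices was sequenced on stranded libraries. The submitters' processing notes name STAR 2.5.2b, Salmon 0.11.3, DESeq 1.22.2, DESeq2 and the mm9 build. The authors deposited log2 values after variance-stabilizing transformation (VST) of 24444 genes, with a batch, which is not named, removed. Over all 48 samples, the means of replicates 1 to 3 and of replicates 4 to 6 were equal to within 3.2e-14 in every gene. Within a single group these sets could differ. In WT mice at 12 months, Slc1a2 was 17.48, 17.16 and 17.26 in replicates 1 to 3 and 17.27, 16.86 and 16.99 in replicates 4 to 6. The most frequent value, 2.1433, is called the floor: 15.7% of values lay at it and 6.06% below it. The values are not counts, so no count model was fitted, and the read depths listed by the study were not used here.

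Genes were tested in limma 3.58.1 (R 4.3.3) where the mean over the fitted samples lay at least 0.5 above the floor, with Benjamini-Hochberg adjusted p below 0.1 over all genes tested. Genotypes were compared at each age on 12 samples, and ages and the differences of genotype effects in one fit of 48 samples with 8 group means. Single genes also had two-sided exact permutation tests, whose smallest p for 6 against 6 mice is 0.00216. These tests were adjusted neither for the number of genes nor for the removed batch. Degrees of freedom were not reduced for the removed batch, except with the replicate sets as a covariate. The same steps were tested on simulated data, but no result of that test is given here. Exact tests were run in scipy 1.17.1 under Python 3.11.15, tables were handled with pandas 2.3.3 on numpy 2.4.6, and plots were drawn with matplotlib 3.10.9.

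The text gives values by mouse for the 5 reactive genes and 6 astrocyte markers (Aldh1l1, Aqp4, Slc1a2, Slc1a3, Gja1 and S100b), the genes called between genotypes or the 3 with the lowest p, and up to 3 rises and 3 falls called per WT age contrast. Other genes named, calls in Chd8 V986*/+ mice included, were chosen after their values were seen. The 34 genes and all lists were chosen with earlier results of these data known. Alternatives were a stricter filter, no filter, another threshold, quantile normalization, median centring, a variance prior without trend or robust, a covariate for replicates 1 to 3 against 4 to 6, other sets of fitted samples, a replicate block and leaving out each mouse. Leaving out WT replicates 1 and 6 at 12 months (also for the lists), or 2, 3 and 5 at E14.5, was chosen after seeing the data.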

Additional observations from a re-analysis of the deposited data

Results flagged for a closer look

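In 13 of 272 groups of 6 mice, over 34 genes and 8 groups, the highest or lowest mouse lay farther from its nearest neighbor than Dixon's 95% limit allows, and chance gives about 1 in 20 groups. In WT embryos, these were Id3 (9.32) and Id4 (11.83) in replicate 1 and Hepacam (5.50) and Fgfr3 (11.47) in replicate 6. In Chd8 V986*/+ embryos, they were Slc1a2 (11.75) and Cst3 (11.16) in replicate 1 and Gjb6 (5.78) in replicate 2. At 6 months they were Mlc1 in WT replicate 3 (12.21), Slc14a1 (8.90) and Clu (14.55) in Chd8 V986*/+ replicate 5 and C4b in Chd8 V986*/+ replicate 2 (10.03). At 12 months they were Vim in WT replicate 3 (9.51) and Slc1a3 in Chd8 V986*/+ replicate 6 (14.08).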

How the results depend on the processing

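Counts of genes that passed moved by over 1.5 times in few cases, and the cause was not tested. At 12 months, 3 genes passed between the genotypes in one fit of all 48 samples against 0. Between 1 and 12 months in WT mice, 9 passed at an adjusted p below 0.05 and 9 without WT replicates 1 and 6, against 14. In Chd8 V986*/+ mice with only the compared groups in the fit, 13 passed between 1 and 6 months, 2 between 6 and 12 months and 17 between 1 and 12 months. The share of all genes that passed in that fit is not given here. Between 6 and 12 months in these mice, 0 passed at an adjusted p below 0.05 and 2 with the stricter filter or median centring. Medians moved most when a mean replaced them, for the reactive genes to -0.74 between genotypes at 12 months, 3.36 and 3.20 from E14.5 to 1 month in WT and Chd8 V986*/+ mice and -0.66 and -0.50 for the change of the genotype difference to 12 months from E14.5 and 1 month, and for the homeostatic genes to 2.95 from E14.5 to 1 month in WT mice. Without Vim, the reactive medians were 0.75 from 1 to 6 and 1.19 from 1 to 12 months in WT mice, and quantile normalization gave a homeostatic median of 2.95 from E14.5 to 1 month in Chd8 V986*/+ mice. Values near 0 changed sign: without WT replicates 2, 3 and 5 at E14.5, Gfap was -0.0327 and Vim -0.0040, and without WT replicates 1 and 6 at 12 months, Gfap was 0.0942, Vim 0.0276 and C4b 0.0121.

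Leaving out 1 mouse at a time gave 0 to 4 genes between genotypes at 12 months and 0 at the other ages, 33 to 34, 7 to 8, 0 to 1 and 9 to 14 in the WT age contrasts, 32 to 33, 3 to 5, 0 to 1 and 5 to 7 in the Chd8 V986*/+ contrasts, and 0 to 1 for the changes of the genotype difference. It moved the genotype difference of Serpina3n at 1 month from -0.1085 to 0.0292, of Vim at 6 months from -0.0802 to 0.0772, of Gfap at 12 months from -0.1347 to 0.0290 and of Vim at 12 months from -0.0830 to 0.0662. No source used here says that a replicate number marks a litter, and not every pair of same-numbered mice correlated over 0.1, so the numbers were not taken as pairs. The mean correlation was 0.23 at E14.5, with 4 of 6 pairs over 0.1 and 7 of 12 samples best with their own number, and 0.02, 0.05 and -0.03 at 1, 6 and 12 months. With a replicate block, 0 genes passed between genotypes at each age, 34, 8, 0 and 14 in the WT contrasts and 33, 5, 1 and 6 in the Chd8 V986*/+ contrasts. Without counts, a value near the floor, such as that of Lcn2 in embryos, cannot be given a counting error.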
